A study of Mus musculus with 24 samples.

Results

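In the nucleus accumbens (NAc) of mice, RNA for *Slc5a3*, the sodium/myo-inositol cotransporter, was lower in male mice after subchronic variable stress (SCVS) than in nonstressed males, at 41.5 ± 2.74 and 63.1 ± 3.49 CPM (edgeR's measure of reads scaled to the size of a library; SD, n = 3 libraries). It was one of 5 genes examined here out of 38293 in the count table: *Slc5a3*, *Slc6a6*, *Akr1b3*, *Slc38a2* and *Nfat5*. They were taken by name, as genes that carry or make organic osmolytes together with the transcription factor of the response to hypertonicity, and they were picked with results from these same libraries in view. Differences in the 5 genes are therefore described with their intervals, and no test is attached to them. All 5 were among the 18593 genes that passed the study's minimum of reads, above 5 in 80% or more of a group's libraries.

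Messenger RNA was sequenced from the NAc of C57BL/6J mice in 4 groups: nonstressed males (NSM), stressed males (SM), nonstressed females (NSF) and stressed females (SF). Stressed mice went through SCVS, in which foot shock, tail suspension and physical restraint took turns over 6 days, and tissue was taken 24 h after the last of them. Nonstressed mice stayed group housed in the home cage, the labels give the age of all groups as 9 weeks, and the females were intact and in proestrus or estrus. Each of the 12 libraries, 3 per group, was made from 10 punches pooled from 5 mice, so that single mice are not resolved and p values measure the spread between pools.

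Cells that lose water in a salty surrounding take up or make small organic solutes such as myo-inositol, taurine, sorbitol, betaine and neutral amino acids, which balance the osmotic load without disturbing proteins. NFAT5, also called TonEBP, is the transcription factor that drives this program, and it binds tonicity-responsive enhancers near the genes of the inositol, taurine and betaine transporters and of aldose reductase. In brain the same solutes help neurons and glia to hold their volume, and myo-inositol is also the starting material of phosphoinositide signaling, while taurine acts on inhibitory receptors.

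Reads counted on genes lay between 41076780 and 60867747 per library. Genes that mark medium spiny neurons, the main cell type of the NAc, were all 10 detected, at a summed level of 5644 to 7084 CPM. Markers of cortical glutamatergic neurons summed to 410 to 480 CPM in NSM and to 574 to 936 CPM in the other libraries. In the first NSM library the choroid plexus marker *Ttr* reached 66.1 CPM, against at most 2.62 CPM elsewhere. The *Slc5a3* differences that involve NSM are therefore also given without this library. In tissue RNA, fewer cells of a type and less RNA per cell cannot be told apart.

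Per length of exon, the transporters of taurine and of neutral amino acids were the most abundant of the 5 genes. The mean over the 12 libraries was 30.1 RPKM (CPM per kilobase of exon) for *Slc6a6* and 21.4 RPKM for *Slc38a2*. It was 6.53 RPKM for *Nfat5*, 5.66 RPKM for *Akr1b3* and 4.62 RPKM for *Slc5a3*, with the length taken over all annotated exons of a gene. *Slc5a3* was the lowest of the 5 on this scale, and it varied most: its highest library was 1.73-fold above its lowest, against 1.21-fold to 1.34-fold for the others. Its 1735 to 3369 reads per library gave a counting error of 1.72% to 2.40%, compared with a coefficient of variation between libraries of a group of 6.96%.

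*Slc5a3* (ENSMUSG00000089774) lies on the forward strand of chromosome 16 of NCBIM37, from 92058567 to 92087718. Its protein-coding sequence of 2154 bases, from 92077302 to 92079455, sits whole in the second of 2 exon blocks. The gene starts only 52 bases after *Mrps6* (ENSMUSG00000039680; 92058515 to 92112472), a gene of the mitochondrial ribosome on the same strand whose first exon it shares. These are the starts of the Ensembl annotation, and in RefSeq (GRCm38.p6) *Mrps6* starts 14 bases after *Slc5a3*, so that the order of the starts depends on the annotation. Over both exon blocks the 2 genes have 696 bases in common, which are 6.38% of the exon length of *Slc5a3* and 43.8% of that of *Mrps6*. A further transcript, Gm16309, has all its 521 exon bases inside those of *Slc5a3* and is listed at 0 reads in the 12 libraries. No read of the bases shared with Gm16309 was thus counted on both genes. The mode of counting is not given in the sources used here. Whether reads of shared bases were dropped or given to a single gene is therefore unknown.

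**Figure D1:**
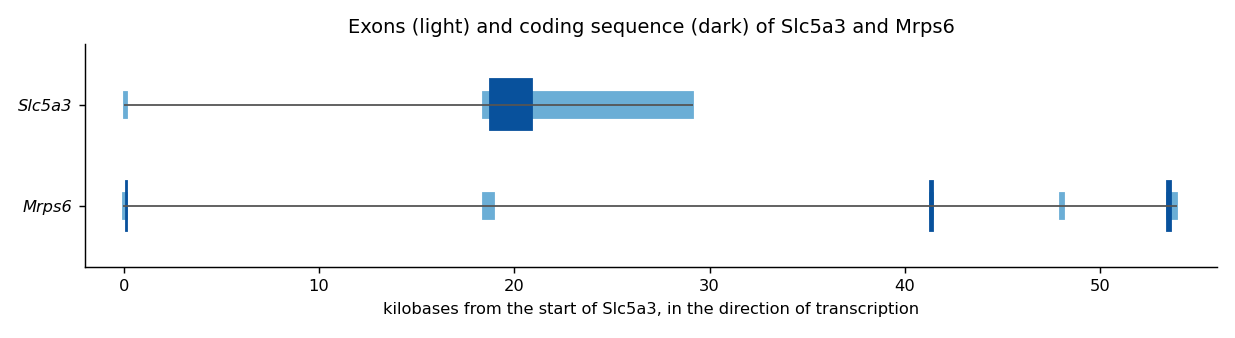
Exons (light) and coding sequence (dark) of *Slc5a3* and *Mrps6* in the Ensembl annotation of NCBIM37, against the distance from the start of *Slc5a3* in kilobases. Both genes start within 52 bases of each other, share exon bases in 2 places and have no coding base in common, with the coding sequence of *Slc5a3* in a single block of 2154 bases.

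The 300 bases before the shared start are printed because both genes begin there and because they hold a match to the tonicity-responsive enhancer consensus, the motif that NFAT5 is known to bind. By the Ensembl starts the match lies 303 bases before *Slc5a3* and 251 bases before *Mrps6*. It is in capitals, as are 5 copies of GGGCGG, the core letters of a GC box, the first pair of which downstream of the enhancer match overlap. The window is chr16:92058215-92058514 of NCBIM37, forward strand.

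Slc5a3 and Mrps6, upstream: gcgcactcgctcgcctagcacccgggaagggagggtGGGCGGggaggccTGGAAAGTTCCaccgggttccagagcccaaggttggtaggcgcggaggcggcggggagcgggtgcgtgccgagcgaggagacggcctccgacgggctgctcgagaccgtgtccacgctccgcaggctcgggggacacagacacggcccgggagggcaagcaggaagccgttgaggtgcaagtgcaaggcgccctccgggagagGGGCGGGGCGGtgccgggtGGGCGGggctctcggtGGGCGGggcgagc

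Searched on both strands of the 2000 bases before the start, *Akr1b3* also held a match, 1001 bases before its start, and *Slc6a6*, *Slc38a2* and *Nfat5* held none. The match of *Akr1b3* is in capitals in its surroundings, chr6:34268463-34268523 of NCBIM37, read on the reverse strand from which the gene is transcribed.

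Akr1b3, upstream: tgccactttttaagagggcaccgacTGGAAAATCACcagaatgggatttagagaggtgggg

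Such matches are common: of 22380 protein-coding genes, 33.5% held at least one in the same 2000 bases. The shorter TGGAAA, which the consensus contains, was present in 85.0% of these windows, and among the 5 genes in those of *Slc5a3*, *Akr1b3*, *Slc38a2* and *Nfat5*. GGGCGG was present in the last 250 bases of 39.6% of genes, and of *Slc5a3*, *Slc6a6*, *Slc38a2* and *Nfat5*. A match of letters is a description of the window and not a measured site.

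To ask what SCVS did in each sex, stressed libraries were set against nonstressed libraries of the same sex. In males *Slc5a3*, which imports myo-inositol with sodium, was at 59.5, 66.4 and 63.3 CPM in the 3 NSM libraries. In the 3 SM libraries it was at 43.8, 42.1 and 38.4 CPM. Each stressed male library was below each nonstressed male library, and the means differed by -34.3%. The log2 difference was -0.61, with a standard error of 0.08 and a 95% interval from -0.77 to -0.44. Without the first NSM library, in which *Ttr* was high, it was -0.64.

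In females the stress difference of *Slc5a3* was small. The NSF libraries were at 41.5, 51.2 and 46.3 CPM, and the SF libraries were at 51.4, 53.1 and 48.3 CPM. The groups overlapped, although the 3 SF libraries were all above the NSF mean. The log2 difference was 0.14, with a standard error of 0.08 and an interval from -0.02 to 0.30.

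Across the 4 groups the mean level of *Slc5a3* was highest in NSM, followed by SF (50.9 ± 2.44 CPM), NSF (46.3 ± 4.86 CPM) and SM. NSM stood above all other libraries, whereas SF overlapped with NSF and NSF with SM. Nonstressed females were thus already below nonstressed males, by -0.45 on the log2 scale (standard error 0.07, interval -0.61 to -0.29). After stress the order of the sexes was turned, and SF exceeded SM by 0.30 (standard error 0.08, interval 0.14 to 0.46). The stress difference in females minus that in males was 0.74 (standard error 0.11, interval 0.52 to 0.97). These comparisons share libraries, so that the high NSM level enters 3 of the values. Without the first NSM library the NSF minus NSM value was -0.50 and the difference of the stress effects was 0.78.

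**Figure D2:**
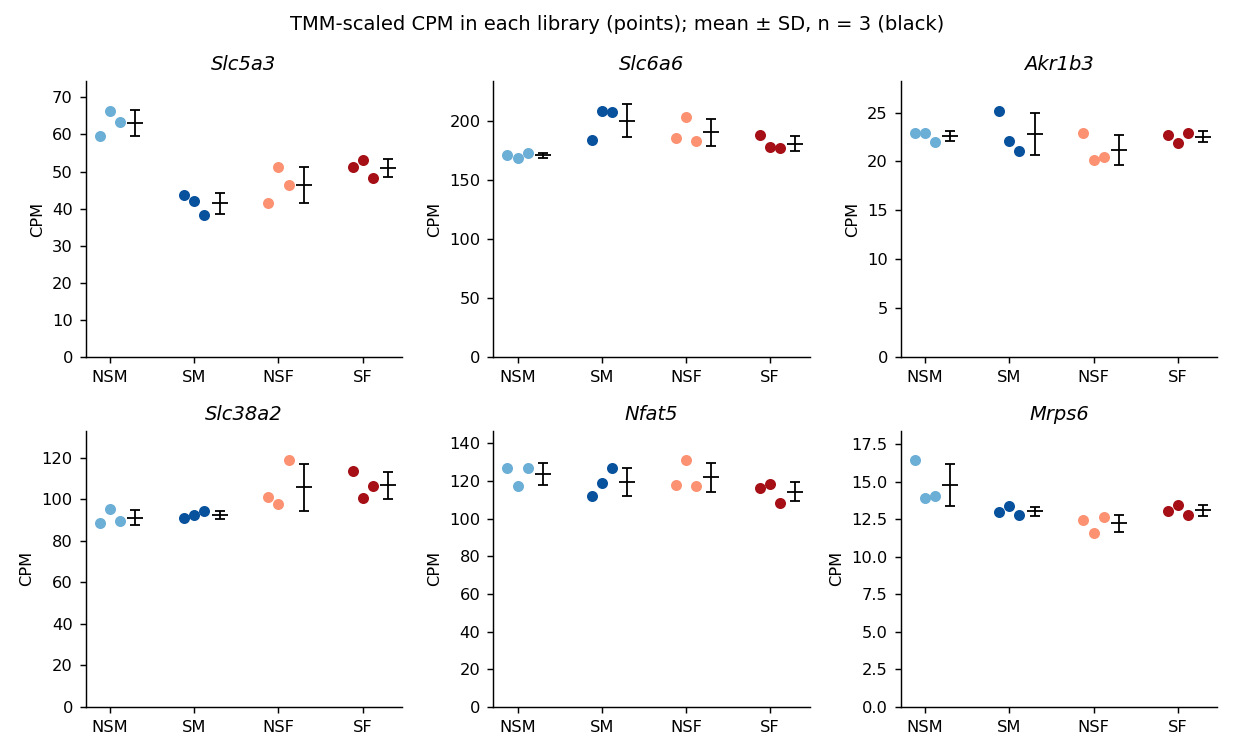
TMM-scaled CPM of the 5 genes and *Mrps6* in each library, with the points of a group in the order of their labels and the mean ± SD (n = 3) in black beside them. *Slc5a3* is at 59.5 to 66.4 CPM in NSM and at 38.4 to 53.1 CPM in all other libraries, while *Akr1b3* and *Nfat5* overlap between all groups.

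*Slc6a6* (ENSMUSG00000030096; chromosome 6 of NCBIM37, 91634061 to 91709057, forward strand) encodes the taurine transporter. The NSM libraries were close together at 171.4, 168.9 and 172.6 CPM. The SM libraries were higher, at 183.9, 208.8 and 208.0 CPM, without overlap. The log2 difference of 0.23 (standard error 0.06, interval 0.10 to 0.35) had the opposite sign to that of *Slc5a3*.

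In females *Slc6a6* was at 185.3, 203.6 and 182.7 CPM without stress. After SCVS it was at 187.8, 177.7 and 177.0 CPM, which overlapped with the nonstressed values (log2 difference -0.07, standard error 0.06, interval -0.20 to 0.05). The order of group means was SM, NSF, SF and NSM, with only SF and NSM not overlapping as neighbors. The stress difference in females minus that in males was -0.30 (standard error 0.08, interval -0.47 to -0.13). Set against each other, *Slc5a3* had 36.9 ± 2.34 reads per 100 reads of *Slc6a6* in NSM and 20.8 ± 2.72 in SM (SD, n = 3). In NSF the figure was 24.3 ± 1.65 and in SF 28.2 ± 1.49.

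*Slc38a2* (ENSMUSG00000022462; chromosome 15, 96517825 to 96530129, reverse strand) encodes SNAT2, a system A transporter of small neutral amino acids. It was at 88.7, 95.1 and 89.5 CPM in NSM and at 90.8, 92.2 and 94.4 CPM in SM. The female libraries were at 101.1, 97.6 and 118.7 CPM without stress and at 113.4, 100.4 and 106.2 CPM after it. Each female library was above each male library, whereas stressed and nonstressed libraries overlapped in both sexes. The log2 difference between nonstressed females and males was 0.21 (standard error 0.07, interval 0.06 to 0.36), and 0.12 without the third NSF library. Between stressed females and males it was 0.20 (standard error 0.07). For stress it was 0.02 in males (interval -0.13 to 0.17) and 0.02 in females (interval -0.13 to 0.16).

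*Akr1b3* (ENSMUSG00000001642; chromosome 6, 34253934 to 34267497, reverse strand) encodes aldose reductase, which makes sorbitol from glucose. Its libraries lay between 20.2 and 25.2 CPM, and the groups overlapped in each of the 4 pairwise comparisons. The stress difference was 0.00 in males (interval -0.14 to 0.15) and 0.10 in females (interval -0.05 to 0.24). A transcript on the opposite strand, Gm14546, spans part of the gene but shares no exon base with it.

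*Nfat5* (ENSMUSG00000003847; chromosome 8, 109817370 to 109903417, forward strand) encodes the transcription factor itself. It was at 117.2 to 127.2 CPM in NSM, 112.3 to 127.0 CPM in SM, 117.4 to 131.0 CPM in NSF and 108.4 to 118.2 CPM in SF. The groups overlapped throughout, and the stress difference was -0.05 in males (interval -0.18 to 0.08) and -0.09 in females (interval -0.23 to 0.04). NFAT5 is known to be controlled largely through its protein and its place in the cell, which RNA levels do not show.

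Counted over the 5 genes, between NSM and SM 1 gene was lower without overlap and 1 was higher, against 11.7% and 11.3% of all tested genes. Between NSF and SF all 5 overlapped, where 6.41% and 4.9% of tested genes were lower or higher without overlap. Between NSM and NSF 1 was lower and 2 were higher in NSF without overlap (8.45% and 11% of tested genes). Between SM and SF *Slc5a3* and *Slc38a2* were higher in SF without overlap (12.8% of tested genes) and none was lower (7.65%). Since the genes were picked with these results known, nothing is read from the counts.

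**Figure D3:**
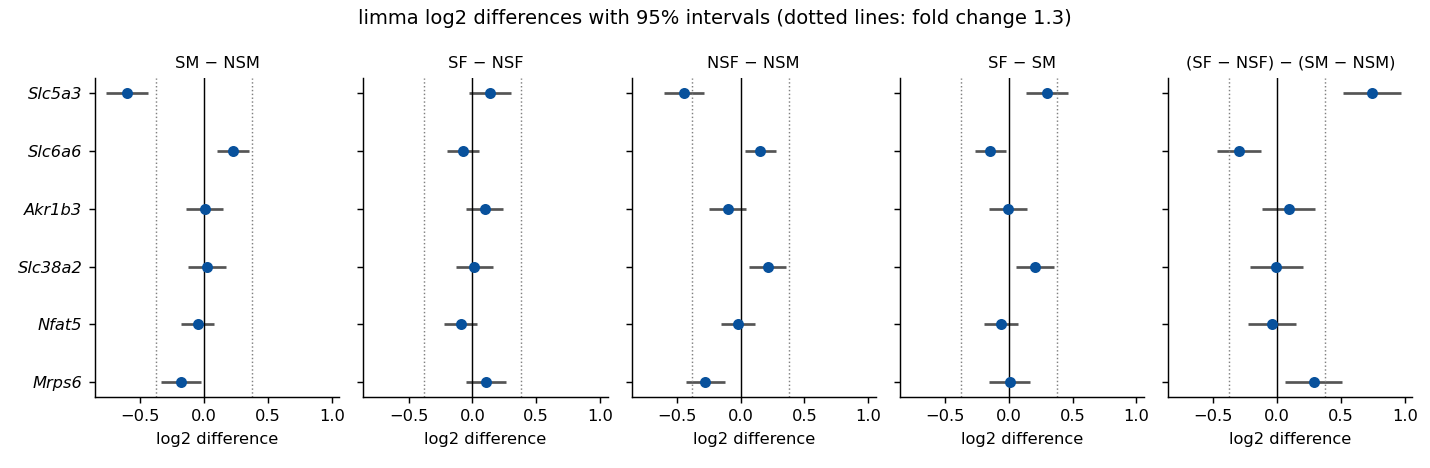
Log2 differences (points) with 95% intervals (lines) from limma for the 5 genes and *Mrps6* in the 4 pairwise comparisons and in the difference of the stress effects between the sexes, with dotted lines at a fold change of 1.3. *Slc5a3* lies past a dotted line in SM minus NSM (-0.61), NSF minus NSM (-0.45) and the difference of the effects (0.74), and no other gene does in any panel.

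*Mrps6*, the gene with which *Slc5a3* shares its first exon, had smaller differences of the same sign in males after stress and between nonstressed females and males. It was at 16.4, 13.9 and 14.0 CPM in NSM and at 12.99, 13.35 and 12.76 CPM in SM. The log2 difference was -0.18 (standard error 0.07, limma, adjusted p = 0.171). In NSF it was at 12.5, 11.6 and 12.6 CPM, or -0.28 against NSM (standard error 0.07, adjusted p = 0.110). The groups did not overlap in either comparison, but neither difference reached a fold change of 1.3. The SF libraries, at 12.76 to 13.44 CPM, were above all NSF libraries, with a difference of means of 7.04%. They overlapped with the SM libraries. The 16.4 CPM was from the first NSM library, in which *Ttr* was high, and no fit of *Mrps6* without it is given. *Slc5a3* had 4.30 ± 0.605 reads per read of *Mrps6* in NSM, 3.18 ± 0.181 in SM, 3.80 ± 0.559 in NSF and 3.89 ± 0.0927 in SF (SD, n = 3). The ratio did not overlap between NSM and SM, whereas it overlapped between NSM and NSF.

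The genes whose log2 CPM followed that of *Slc5a3* most closely over the 12 libraries, among 11447 genes with at least 5 CPM, were *Zdbf2*, *Ints8*, *Mettl16*, *Fndc3a* and *Ncoa2*. Pearson's r was 0.972, 0.961, 0.961, 0.952 and 0.939 in that order. These values describe 12 points in 4 groups, and they carry no p. At each point both genes of a pair come from the same library, with the same depth and dissection. *Zdbf2*, an imprinted gene, was at 136 ± 3.87 CPM in NSM, 92.7 ± 3.38 in SM, 103 ± 11.3 in NSF and 106 ± 7.93 in SF, the same order as *Slc5a3*. *Mrps6* was the 1221st gene by this measure, with an r of 0.551. Among the 5 genes themselves, *Slc5a3* and *Slc6a6* had an r of -0.736, and *Slc5a3* with *Nfat5* had 0.195. The genes most like *Slc6a6* were Gm12992 (0.882) and *Abcc9* (0.874), and those most like *Slc38a2* were *Nacc1* (0.933) and *Trib1* (0.927). For *Akr1b3* they were *Srp14* (0.937) and *Pcdhb9* (0.936), and for *Nfat5* 2010015L04Rik (0.908) and E130307A14Rik (0.869).

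Some markers of other cells also differed between the groups. The 10 markers of cortical glutamatergic neurons, all detected, summed to 410 to 480 CPM in NSM, 574 to 703 in SM, 633 to 936 in NSF and 596 to 827 in SF. Of the 10, 3 were higher in SM and 7 in NSF than in NSM at an unadjusted limma p below 0.05 and a fold change of 1.3 or more, the thresholds of the study. Between SF and NSF 0 passed them, with a median log2 difference of -0.85, and between SF and SM 1 was higher. For the stress difference in females minus that in males 6 of the 10 were lower by these thresholds. Their list had a median of -3.39 there, and 4.42% of all tested genes passed in either direction. With the mean level of these markers in the model, the log2 difference of *Slc5a3* was -0.42 in males and -0.23 between NSF and NSM. The difference of the stress effects was then 0.49. In the same model *Slc38a2* differed by 0.10 between NSF and NSM, against 0.21 without the markers. The mean log2 level of the markers was 0.84 to 2.05 in NSM, 2.64 to 4.16 in SM and 2.33 to 4.85 in NSF. NSM overlapped with neither group, so marker level and group cannot be told apart in these comparisons.

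Markers of red blood cells summed to 21.8 to 27.4 CPM in NSM, 38.5 to 47.3 in SM, 29.8 to 38.9 in NSF and 28.8 to 32.0 in SF. Of 6 such markers 5 were tested, and all 5 were higher in SM than in NSM by these thresholds. In NSF 2 were higher than in NSM, and 4 were lower in SF than in SM. For the stress difference in females minus that in males all 5 were lower. The 3 SM libraries and the first NSF library had the most red blood cell RNA and the least *Slc5a3*. Choroid plexus markers summed to 42.7 to 114 CPM in NSM, 36.7 to 40.8 in SM, 35.8 to 44.5 in NSF and 43.9 to 47.0 in SF. Of 7 tested, 2 were lower in SM than in NSM and 2 were higher in SF than in SM. For the stress difference in females minus that in males 2 were higher. Of the 3 lists 1 marker, the red blood cell gene *Slc4a1*, was at 0 reads in 1 library, and no other was at 0 in any. The part of red blood cells and choroid plexus in the *Slc5a3* result was not tested. Markers of astrocytes, oligodendrocytes, microglia, endothelial cells, meningeal and mural cells and medium spiny neurons had between 0 and 2 members past the thresholds in either stress comparison.

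**Figure D4:**
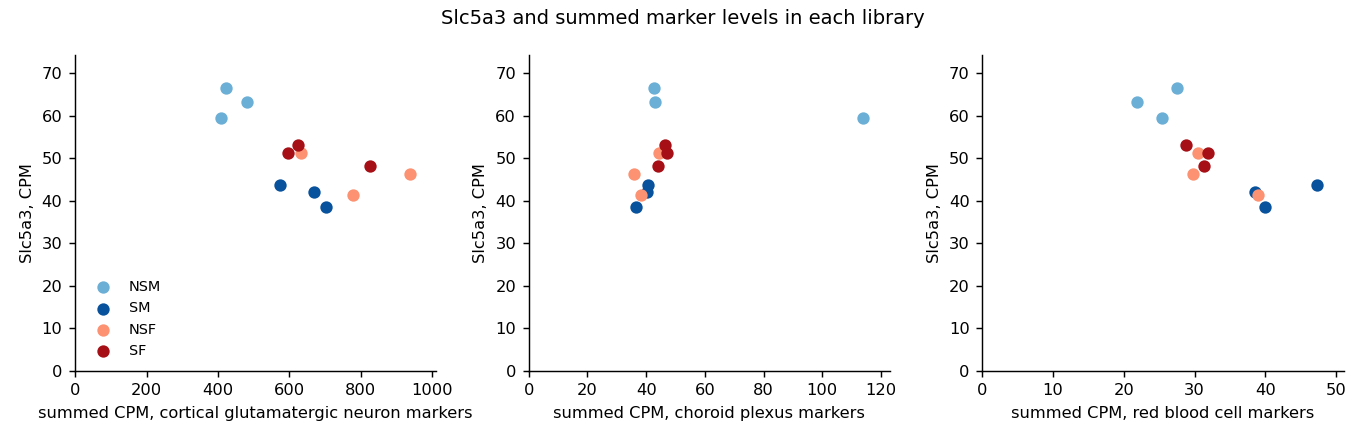
*Slc5a3* (vertical axis, CPM) against the summed CPM of markers of cortical glutamatergic neurons, choroid plexus and red blood cells (horizontal axes), with one point per library in the color of its group. The 3 NSM libraries have the highest *Slc5a3* together with the lowest cortical and red blood cell levels, and 1 NSM library stands apart at 114 CPM of choroid plexus markers.

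Around these genes, 69 others of osmolyte handling and volume control were examined in 7 lists, of which 65 were tested. The study called a gene when its unadjusted limma p was below 0.05 and its fold change 1.3 or more. In males 4 of the 65 were called, all lower in SM, or 6.15% against 6.44% of all tested genes in either direction and 4.08% lower. Their median log2 difference was 0.00, against -0.01 over all tested genes. Of the 65, 19 had an unadjusted limma p under 0.05, against 3992 of all 18593 tested genes. In females 2 were called, both higher in SF, or 3.08% against 1.73% of all tested genes in either direction and 0.64% higher, with a median of 0.00 here and over all genes.

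The genes called in males were the inducible heat shock genes *Hspa1a* and *Hspa1b*, *Slc6a12* and *Lrrc8e*. *Hspa1b*, whose protein HSP70 protects cells from misfolded proteins and is induced by heat as well as by salt, was at 2.21, 2.64 and 1.74 CPM in NSM. In SM it fell to 0.478, 0.489 and 0.642 CPM (log2 difference -1.995, standard error 0.35, adjusted p = 0.0113, limma). For *Hspa1a*, a copy so alike that reads may fit both genes, the log2 difference was -1.30 (standard error 0.28, adjusted p = 0.0279, limma). How such reads were counted is not given in the sources used here. In females the values were -0.01 for *Hspa1a* and -0.14 for *Hspa1b*, with standard errors of 0.21 and 0.25. The stress effects differed between the sexes by 1.298 and 1.86, past the thresholds, with adjusted p values of 0.256 and 0.169 (limma).

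The betaine and GABA transporter *Slc6a12* was near the limit of detection, with 9 to 21 reads in NSM and 3 to 10 reads in SM. Its log2 difference was -1.15 (standard error 0.39, adjusted p = 0.123, limma). *Lrrc8e*, a subunit of the volume-regulated anion channel named after its value was seen, had a mean of 8.5 reads and a log2 difference of -1.43 (standard error 0.44, adjusted p = 0.0897, limma). Both dropped out when at least 10 reads in every library were asked for, which left 2 called genes.

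Called in females were *Sgk1* and *S100a4*. *Sgk1*, a kinase induced by glucocorticoids and by hypertonicity, was at 68.7, 77.2 and 70.7 CPM in NSF and at 112.4, 84.8 and 91.0 CPM in SF (log2 difference 0.40, standard error 0.08, adjusted p = 0.948, limma). In males it was at 73.7, 69.4 and 72.4 CPM without and at 89.0, 83.3 and 86.2 CPM with stress (0.26, standard error 0.08, adjusted p = 0.0980, limma), which is short of a fold change of 1.3. Stressed libraries of both sexes lay above all nonstressed ones, and the effects differed by 0.14 (standard error 0.12, adjusted p = 0.768, limma). *S100a4*, a calcium-binding protein, had 39 to 76 reads in the female libraries and a log2 difference of 0.54 (standard error 0.17, adjusted p = 0.948, limma).

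**Figure D5:**
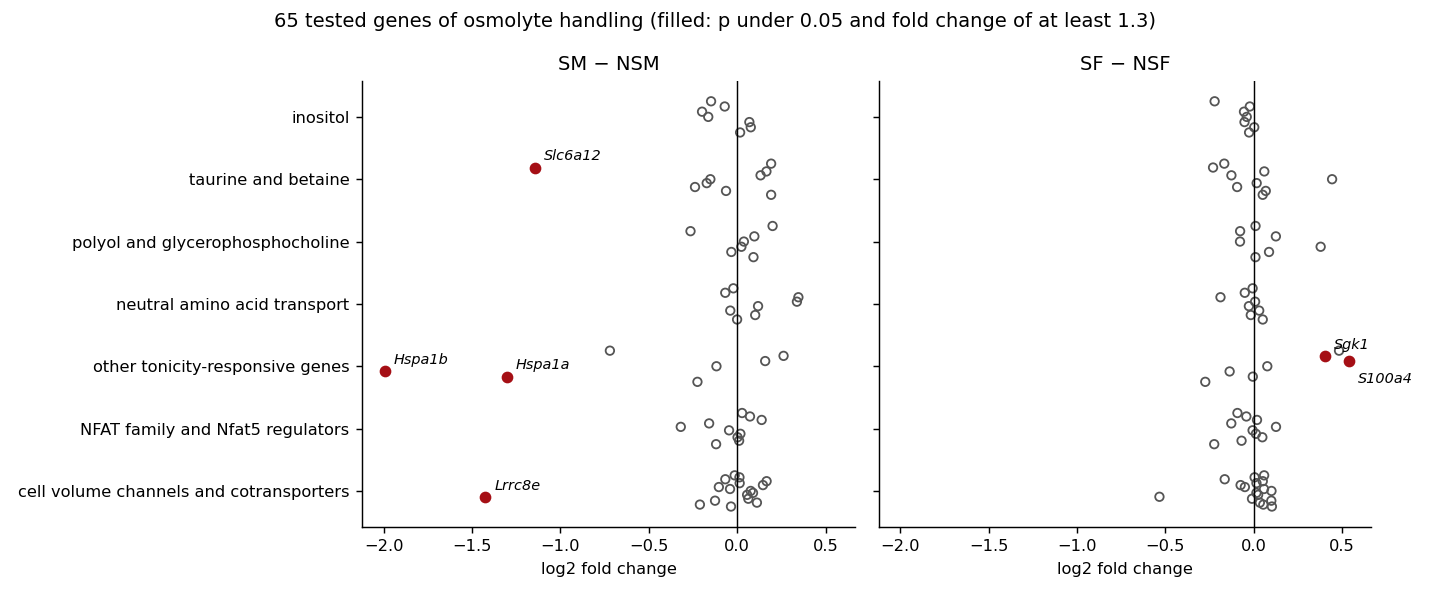
Log2 fold changes of the 65 tested genes of osmolyte handling, one point per gene in 7 lists, for SM minus NSM and SF minus NSF. Filled and named points passed the thresholds of the study: 4 genes, all lower, in males and 2 genes, both higher, in females.

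Within the inositol list 0 of 7 tested genes were called in either sex, with medians of -0.07 in males and -0.04 in females. *Slc5a11*, the second sodium/myo-inositol cotransporter, was scarce at 0.765 to 1.27 CPM, with a log2 difference of -0.15 in males (standard error 0.18, adjusted p = 0.665, limma). *Isyna1*, the inositol-3-phosphate synthase, was at 44.6 ± 6.75 CPM in NSM and 38.6 ± 3.08 in SM (SD, n = 3). In females it was at 50.8 ± 1.78 CPM in NSF and 49.0 ± 3.04 in SF. Its log2 difference in males was -0.20 (standard error 0.10, adjusted p = 0.249, limma).

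Of the taurine and betaine list only *Slc6a12* was called in males and 0 of 9 in females. The enzymes of taurine synthesis *Cdo1* and *Csad* had log2 differences of -0.06 and -0.17 in males (standard error 0.07 for both, adjusted p = 0.655 and 0.198, limma). In the list of polyols 0 of 7 were called in either sex, and *Sord*, which turns sorbitol into fructose, had 0.20 in males (standard error 0.09, adjusted p = 0.208, limma). Among 8 other neutral amino acid transporters none was called in either sex, and *Slc38a1*, another system A transporter, had -0.04 in males and 0.03 in females (standard error 0.06 for both). *Hspa4l*, an HSP70 relative known from osmotic stress, was abundant at 197 to 246 CPM, with -0.12 in males and 0.08 in females. Of the NFAT family and regulators of *Nfat5* 0 of 10 were called in either sex, and *Nfatc3* had 0.14 in males (standard error 0.07, adjusted p = 0.287, limma).

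Between NSF and NSM 10 of the 65 genes had an unadjusted limma p under 0.05, against 2859 of all 18593 tested genes. By limma 0 of the 65 were called, against 5.31% of all tested genes. The count was also 0 with edgeR and DESeq2, and it was 4 with library quality weights, 2 with quantile normalization and up to 2 when one library was left out. Between SF and SM 3 were called, all higher in SF, against 4.58% of all tested genes called higher and 5.55% in either direction. They were *Hspa1a* (log2 difference 1.59, adjusted p = 0.0474, limma), *Hspa1b* (1.77, adjusted p = 0.0825) and the urea transporter *Slc14a2* (1.298, adjusted p = 0.113), the last of which had a mean of 38.3 reads and was named after its value was seen. The stress effects differed between the sexes past the thresholds for 5 of the 65 genes, or 7.69% against 4.42% of all tested genes. Besides both heat shock genes these were *Slc14a2*, *Nfatc1* and *Slc38a5*, again named after their values were seen, and 0 of the 5 had an adjusted p under 0.05 in limma. By the adjusted p alone, 2 of the 65 were under 0.05 in males (3.32% of all tested genes), 0 in females (0%), 0 between NSF and NSM (0.285%), 1 between SF and SM (0.145%) and 0 for the difference of the effects (0.0269%).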

How the data were processed

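RNA from the NAc of 4 groups was sequenced in 12 mRNA libraries. The authors used the TruSeq RNA v2 kit, aligned 50 bp paired reads to NCBIM37 (Ensembl version 67) with TopHat2, counted reads per gene with HTSeq and deposited raw counts without normalization. The strand setting and mode of HTSeq are not given in the sources used here, and the kit does not mark strand. Small RNA counts of the series were not used here.

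Counts were scaled by TMM (edgeR 4.0.16) and fitted with voom and limma (limma 3.58.1, R 4.3.3), with one mean per group over the 12 libraries. The study's methods state voom and limma with sex and stress as factors, and the minimum of reads and the thresholds below. The scaling and the coding by group means were chosen here. Of 38293 genes, 18593 with reads above 5 in 80% or more of a group's libraries were tested. Calls required an unadjusted p below 0.05 together with a fold change of 1.3 or more, and the Benjamini-Hochberg adjustment ran over all tested genes. RPKM used the exon lengths of the Ensembl 65 annotation of NCBIM37 (GENCODE M1), from which gene positions and symbols were also taken. Sequences were read from NCBIM37.

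Genes outside the 5 were named by a rule: genes of the 7 lists called in either stress comparison or between nonstressed sexes with a mean of at least 10 reads, a set of 10 genes named in any case, genes that overlap the 5, and for *Slc5a3* the 5 and for each other gene the 2 genes of highest Pearson r. The 5 genes, the lists and the rule were chosen with earlier results of these data known. Tried instead were the quasi-likelihood test of edgeR, DESeq2 1.42.0, other scalings and filters, the adjusted p in the call, only the libraries compared, library quality weights, cortical markers as a covariate, the replicate number as a block, and leaving out each library. The fit was tested on simulated data. Libraries of a group differed by more than sampling noise. With 3 libraries per group, between 41076780 and 60867747 reads on genes each set the counting error. The labels number the libraries of a group from 1 to 3 without saying what the numbers mean.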

Additional observations from a re-analysis of the deposited data

Results flagged for a closer look

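The stress difference of *Slc5a3* in females minus that in males was 0.74 on the log2 scale. It was flagged because all 3 SM libraries were below the NSM mean, while all 3 SF libraries were above the NSF mean. For *Slc6a6* the same quantity was -0.30, with all 3 SM libraries above the NSM mean and all 3 SF libraries below the NSF mean. This flag was set for the 5 genes only, and the share of all tested genes that meet it is not known. For both genes SF overlapped with NSF. As both genes were chosen with results of these libraries known, the difference between the sexes was not tested.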

How the results depend on the processing

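The log2 differences of *Slc5a3* kept their sign in each comparison under the alternatives tried, and in males they lay between -0.66 and -0.42. With cortical glutamatergic markers as a covariate the *Slc5a3* values moved to -0.42 in males, -0.23 between NSF and NSM and 0.49 for the difference of the effects. With each library left out in turn they stayed between -0.65 and -0.55 in males, 0.07 and 0.22 in females, -0.52 and -0.38 between NSF and NSM, 0.24 and 0.34 between SF and SM, and 0.67 and 0.82 for the difference of the effects. Signs changed under some alternatives for *Akr1b3* in SM minus NSM (-0.07 to 0.06) and SF minus SM (-0.07 to 0.05), and for *Nfat5* in NSF minus NSM (-0.07 to 0.02) and the difference of the effects (-0.09 to 0.01). They did so too for *Slc38a2* in males (-0.07 to 0.07), in females (-0.04 to 0.10) and in the difference of the effects (-0.06 to 0.12).

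Of the 65 genes around them, 4 were called in males, 2 in females, 0 between NSF and NSM, 3 between SF and SM and 5 for the difference of the effects. With the adjusted p in the call these became 2, 0, 0, 1 and 0. With at least 10 reads in every library 2 were called in males. Library quality weights gave 1 in females, 4 between NSF and NSM and 5 between SF and SM, quantile normalization gave 2 between NSF and NSM, and the cortical covariate gave 1 in females and 3 for the difference of the effects. Leaving out one library gave 4 to 5 in males, 1 to 2 in females (1 without the first NSF or the first SF library), 0 to 2 between NSF and NSM, 3 to 7 between SF and SM (7 without the first SF library) and 3 to 6 for the difference of the effects (3 without the first SM library). Between NSF and NSM 1 gene was called without the first or second NSM, the third SM or the second NSF library, and 2 without the third NSM or the first NSF library. The cause of these shifts was not tested.

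Same-numbered libraries of a sex deviated from their group means with correlations across genes from 0.00 to 0.32 in males and 0.08 to 0.11 in females. These were over 0.1 in 3 of 6 pairs. For libraries of different number the correlations were -0.19 to 0.18 in males and -0.12 to 0.03 in females. The labels do not say what the numbers mean, so they were not taken to pair the libraries. Whether they mark a batch was not tested. With the replicate number as a block *Slc5a3* had -0.61 in males, 0.14 in females, -0.45 between NSF and NSM, 0.30 between SF and SM and 0.75 for the difference of the effects, and 4, 2, 0, 3 and 5 of the 65 genes were called. Counts of under 10 reads limit *Slc6a12* and *Lrrc8e*.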
